A study of Mus musculus with 4 samples.

Results

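The neurofilament genes *Nefl* and *Nefm*, the overlapping long non-coding RNA *A230070E04Rik* and the neurofilament gene *Nefh* were examined in mouse ESCs without telomerase RNA. These 4 genes, of 24116 in the gene table, were chosen by name and position with their counts and fold changes in the same comparison known, *Nefh* as a contrast, so that their own differences are described below without a test. RNA-seq libraries of G3 *Terc*-/- ESCs, derived from blastocysts of G2 *Terc*-/- intercrosses, were compared with libraries of wild-type (WT) ESCs. Both genotypes were C57BL/6 and were cultured on feeder cells in medium with serum and leukemia inhibitory factor, and poly(A) RNA was sequenced. Each genotype had 2 libraries of 1 line, N12 for WT and F35 for G3 *Terc*-/-, so that genotype and line cannot be told apart. The labels do not say whether these libraries came from separate cultures, while the study's methods call them biological replicates of a line. The p-values measure only the spread between libraries of the same line.

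Neurofilaments are the intermediate filaments of neurons and are best known for filling the axon and setting its calibre. They are built from a light chain (*Nefl*), a medium chain (*Nefm*) and a heavy chain (*Nefh*), together with α-internexin (*Ina*) or peripherin (*Prph*), and the medium and heavy chains carry long tails that are heavily phosphorylated in axons. The genes are classical markers of neuronal differentiation.

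The WT libraries held 22057607 and 22520017 gene counts, the G3 *Terc*-/- libraries 21898081 and 18047995. *Terc* (gene identifier 21748) was read in WT, at 7 and 2 counts, and had 0 counts in either G3 *Terc*-/- library, each of which allows for at most 3. Markers of ESCs were abundant in all 4 libraries. *Pou5f1*, a core pluripotency factor, had 20359 and 20711 counts in WT, against 26812 and 22309 in G3 *Terc*-/- libraries, and *Sox2* had 10342 and 11083 against 13698 and 12766. Values below are counts or CPM (counts scaled by TMM to a common library size), and the 4 genes all passed the filter on low counts that left 14896 genes for testing. *A230070E04Rik* would not have passed it on its WT libraries alone. The same holds for *Ebf2*, *Pou3f2*, *Dcn* and *Adra1a* among the genes named below as higher. It holds too for *Gm5039*, *Pramel16*, *Vax2os* and *Gm20767*, named below as most like *Nefm* or *A230070E04Rik*. *Snap25* and *Stmn4*, named below as lower, would not have passed the filter on their G3 *Terc*-/- libraries alone.

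*Nefl*, the light chain and core subunit of the filament, lies on chromosome 14 of GRCm38 from 68083863 to 68089095 on the plus strand (gene identifier 18039). It had 1086 and 1179 counts in WT, against 1802 and 1533 in G3 *Terc*-/- libraries. Both G3 *Terc*-/- libraries lay above both WT libraries. Scaled for depth, these were 51.5 ± 2.43 (SD, n = 2) CPM in WT and 82.6 ± 1.95 (SD, n = 2) CPM in G3 *Terc*-/- ESCs, a 1.61-fold higher mean. Ratios between single libraries of the genotypes ran from 1.53 to 1.69. The gene was thus already read in the WT libraries, and its difference was below a fold change of 2. The cultures held feeder cells, and which cells its reads came from was not tested.

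*Nefm*, the medium chain, lies 30449 bases beyond *Nefl* on the opposite strand (gene identifier 18040, chromosome 14 from 68119545 to 68125004). It had 43 and 27 counts in WT, against 439 and 409 in G3 *Terc*-/- libraries. The WT libraries were both low and the G3 *Terc*-/- libraries both high, with no overlap. Its level was 1.59 ± 0.531 (SD, n = 2) CPM in WT and 21.1 ± 1.85 (SD, n = 2) CPM in G3 *Terc*-/- ESCs, 13.2-fold higher, with ratios between single libraries from 10.1 to 18.4. Within the WT libraries *Nefm* had 3.96% and 2.29% as many counts as *Nefl*, and within the G3 *Terc*-/- libraries 24.4% and 26.7%. In bulk libraries, more cells that express a gene and more RNA per cell cannot be told apart.

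*A230070E04Rik* is annotated as a long non-coding RNA whose product has no function stated in the annotation used here (gene identifier 100043072, chromosome 14 from 68123752 to 68131371). It had 13 and 6 counts in WT, against 185 and 168 in G3 *Terc*-/- libraries. As for *Nefm*, the WT libraries were both low and the groups did not overlap. The mean was 0.433 ± 0.230 (SD, n = 2) CPM in WT and 8.78 ± 0.612 (SD, n = 2) CPM in G3 *Terc*-/- ESCs, 20.3-fold higher. The WT counts set the precision of this fold, since the exact Poisson 95% interval was 6.92 to 22.2 for 13 counts and 2.20 to 13.1 for 6 counts, and these intervals cover counting error only. Its log2 fold change of 4.32 came to 4.98 when WT replicate 1 was left out and to 3.86 when WT replicate 2 was.

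The span of *A230070E04Rik* starts inside the first exon of *Nefm* and covers 1095 of the 1107 bases of that exon. In each library *A230070E04Rik* had fewer counts than *Nefm*, 30.2% and 22.2% as many in WT and 42.1% and 41.1% as many in G3 *Terc*-/- libraries. Neither exons nor a strand of *A230070E04Rik* were available in the annotation used here, so only its span could be compared. The counting is not stated to use strand, so reads of *Nefm* and of the overlapping transcript cannot be told apart where any of their exons coincide. At the other end, the last exon of the longer annotated transcript, Nefm-202, reaches chromosome 14 from 68082590 to 68084970 and shares 1108 bases with the first exon of *Nefl* on the opposite strand. This exon lies outside the span of *Nefm* given above, so it is not known whether the counts of *Nefm* cover it. How many reads the counting gave to each gene there was not tested.

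*Nefh*, the heavy chain, is encoded on another chromosome (gene identifier 380684, chromosome 11 from 4938754 to 4948064, minus strand). It had 1128 and 1100 counts in WT, against 1094 and 858 in G3 *Terc*-/- libraries, whose depths differed. In CPM, these were 51.7 and 49.6 against 49.3 and 47.0, so that the G3 *Terc*-/- libraries lay just below the WT libraries. The means, 50.6 ± 1.45 (SD, n = 2) and 48.2 ± 1.63 (SD, n = 2) CPM, differed by a log2 fold change of -0.07. Of the 4 genes, 3 had both G3 *Terc*-/- libraries above both WT libraries in CPM, as did 35.5% of all genes tested, and *Nefh* had both below, as did 34.9%. An exact permutation test (two-sided) of 2 libraries against 2 cannot give a p below 0.333.

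**Figure D1:**
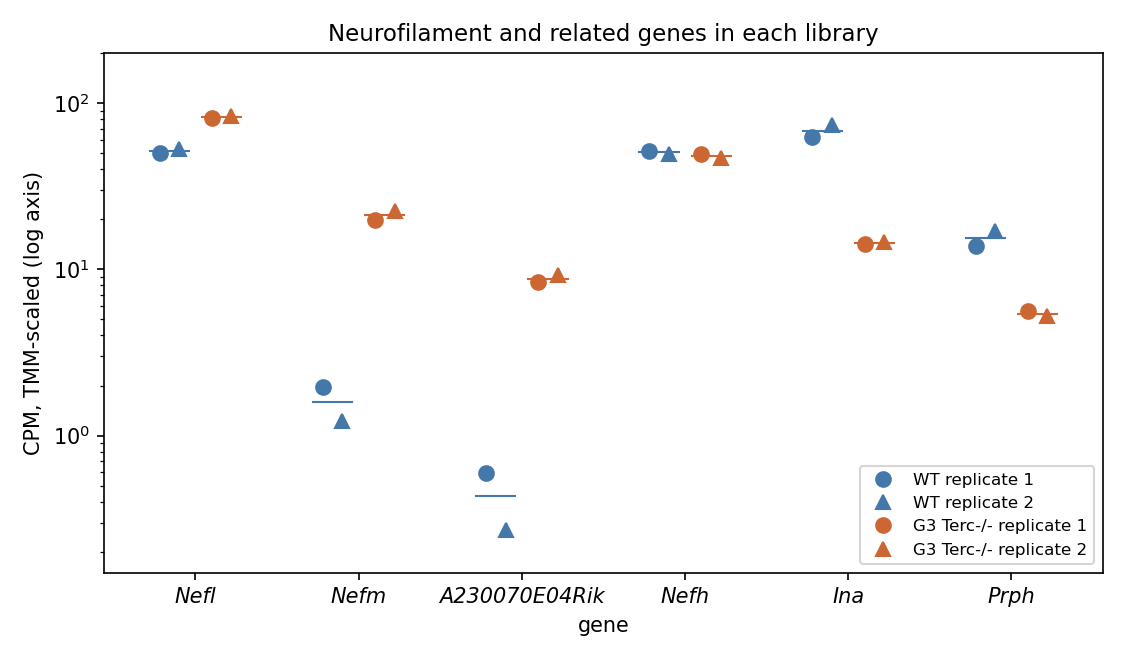
CPM after TMM scaling on a log axis for *Nefl*, *Nefm*, *A230070E04Rik*, *Nefh*, *Ina* and *Prph*, with 1 point per library and a line at the mean of each genotype. *Nefm* and *A230070E04Rik* sit at or below 1.97 CPM in WT and at or above 8.34 CPM in G3 *Terc*-/- libraries, and *Ina* and *Prph* are lower in both G3 *Terc*-/- libraries.

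Levels of different genes were compared per length, as CPM per kb of merged exons, for the 5 genes of the neuronal filament. In WT ESCs the order was *Ina* (21.0 ± 2.27, SD, n = 2), *Nefl* (15.2 ± 0.720), *Nefh* (12.7 ± 0.362), *Prph* (7.71 ± 1.19) and *Nefm* (0.276 ± 0.0919). In G3 *Terc*-/- ESCs it was *Nefl* (24.5 ± 0.578), *Nefh* (12.1 ± 0.408), *Ina* (4.42 ± 0.0894), *Nefm* (3.65 ± 0.320) and *Prph* (2.71 ± 0.152). Each step in either order was larger than the SDs of the 2 genes it separates. The merged exons of *Nefm* include the distant exon of Nefm-202, and so does its longest transcript, which is Nefm-202 itself. That exon lies outside the span of *Nefm* given above, so these lengths may not match what was counted. Without it the level of *Nefm* per kb would be higher, and its place relative to *Ina* in G3 *Terc*-/- ESCs depends on the length used. With the length of the longest transcript the level of *Nefm* was 0.433 in WT and 5.74 in G3 *Terc*-/- ESCs, which put it above *Ina* in G3 *Terc*-/- ESCs.

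Of the summed level of these 5 genes per kb, *Nefl* made up 26.8% ± 0.487 (SD, n = 2) in WT, compared with 51.7% ± 0.755 (SD, n = 2) in G3 *Terc*-/- ESCs. *Nefm* went from 0.491% ± 0.194 to 7.72% ± 0.608, and *Ina* from 36.9% ± 1.58 to 9.34% ± 0.105. By the longest transcript the shares of *Nefm* were 0.761% and 11.6%, and those of *Ina* 36.4% and 8.91%, so that *Nefm* had the larger share in G3 *Terc*-/- ESCs. The share of *Nefh* was 22.3% ± 2.10 in WT and 25.5% ± 1.09 in G3 *Terc*-/- ESCs. The sum itself was 54.3 and 59.6 CPM per kb in WT, against 47.0 and 47.6 in G3 *Terc*-/- libraries. The RNA of the neuronal filament genes had another make-up in the G3 *Terc*-/- line, with more *Nefl* and *Nefm* and less *Ina* and *Prph*, at a lower sum.

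The chains share a conserved end of the α-helical rod, and their coding sequences were compared to see how far reads of 1 chain could be taken for another. The coding sequence has 1632 bases in *Nefl*, 2547 in *Nefm* and 3273 in *Nefh*. The longest run of identical bases that *Nefm* shares with *Nefl* has 17 bases, with *Nefh* 23, with *Ina* 19 and with *Prph* 35, and *Nefl* and *Nefh* share at most 14.

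Genes within 1 Mb of *Nefl*, *Nefm* and *A230070E04Rik* were taken by position alone. Of 12 such genes in the table, 5 entered the quasi-likelihood test of edgeR, and a fold change of 2 at a *P* value of 0.05 was passed by 1 gene as higher and by 0 as lower. DESeq2 called 0 and 0, and at an unadjusted p under 0.05 and any size 3 were higher and 1 was lower, as were 3729 (25.0%) and 3696 (24.8%) of all genes tested. Over the 5 genes the median log2 fold change was 0.29, against 0.0062 over all genes tested, of which 704 (4.73%) were higher and 466 (3.13%) were lower at the fold change of 2 and *P* of 0.05. The gene that passed was *Ebf2*, a transcription factor of neuronal and adipocyte differentiation, with 13 and 5 counts in WT, against 21 and 20 in G3 *Terc*-/- libraries (log2 fold change 1.30, standard error (SE) 0.47, higher in both libraries). It would not have passed the filter on low counts with its WT libraries alone, so its p-value is not given. *Ebf2* no longer passed the cutoffs without WT replicate 2, where its log2 fold change was 0.76, without G3 replicate 2 (1.20) or with DESeq2 (1.31). When WT replicate 1 was left out, *Ebf2* came to 2.14 and *Stc1* passed as well (1.28).

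The nearest tested gene before *Nefl* was *Dock5*, an activator of Rac GTPases 150 kb away, with 2922 and 3104 counts in WT, against 2613 and 2058 in G3 *Terc*-/- libraries. Its log2 fold change was -0.25 (SE 0.06, adjusted p = 0.000313 by edgeR), so that it was lower in both G3 *Terc*-/- libraries in CPM at a small size. On the other side the nearest was *Stc1*, the gene of the secreted glycoprotein stanniocalcin, 898 kb away, with 19 and 11 counts in WT, against 25 and 24 in G3 *Terc*-/- libraries (log2 fold change 0.83, SE 0.39, adjusted p = 0.0872 by edgeR). Of the 5 tested neighbours, *Ebf2* and *Stc1* had larger log2 fold changes than *Nefl* (0.68). None was as large as that of *Nefm*, which was chosen with its fold change known, so nothing is concluded from this. Of the other 7 neighbours, 4 had 0 counts in all libraries.

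**Figure D2:**
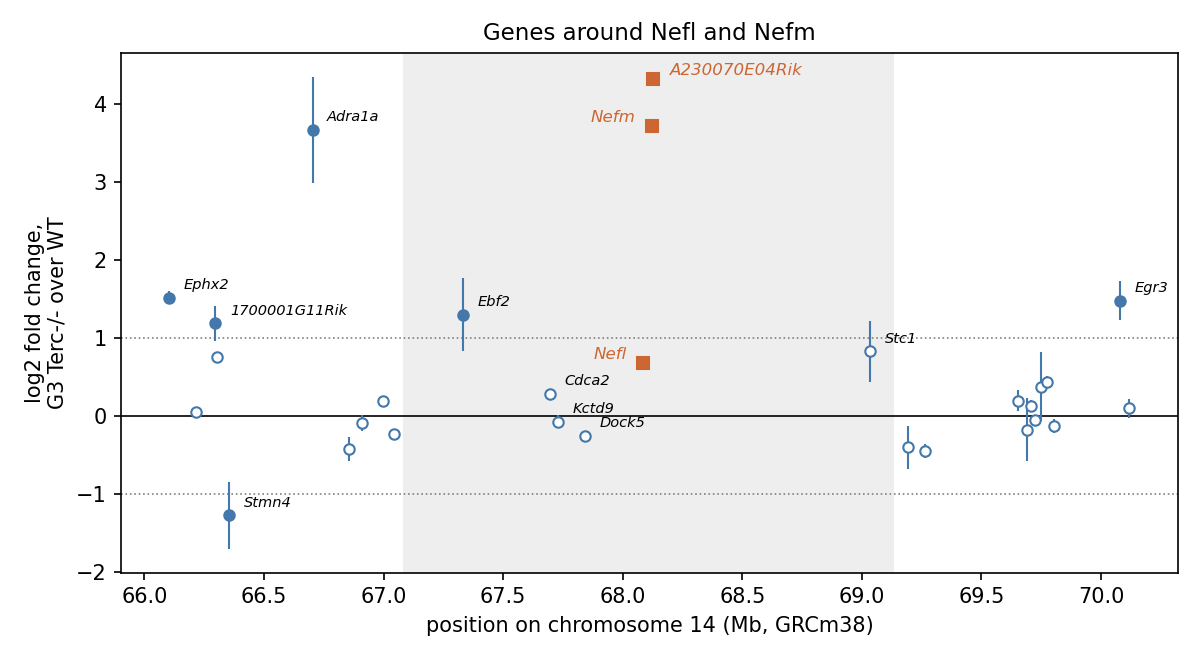
Log2 fold change (G3 *Terc*-/- over WT) against position on chromosome 14 of GRCm38 for the genes tested within 2 Mb, with the window of 1 Mb shaded. Circles are other genes with their standard errors, filled where they passed the cutoffs, squares are *Nefl*, *Nefm* and *A230070E04Rik*, and dotted lines mark a fold change of 2. *Nefm* (3.72) and *A230070E04Rik* (4.32), chosen with their fold changes known, lie above the genes between them and the edges of the shaded window. *Adra1a*, outside the window and with at most 24 counts, is at 3.67.

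Among the other intermediate filament genes, *Ina* and *Prph*, the remaining partners of the neuronal filament, changed in the direction opposite to that seen in *Nefl* and *Nefm*. *Ina* had 1374 and 1626 counts in WT, against 313 and 265 in G3 *Terc*-/- libraries, which gave a log2 fold change of -2.25 (SE 0.08, adjusted p = 1.51e-24 by edgeR, lower in both libraries). *Prph*, the filament of peripheral neurons, had 300 and 379 counts against 125 and 95, which gave a log2 fold change of -1.50 (SE 0.14, adjusted p = 3.59e-12 by edgeR, lower in both libraries). Both genes remained lower at the cutoffs under DESeq2, its size factors, no filter, the replicate block and with each library left out.

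Of the 25 other intermediate filament genes in the table, 22 were tested. At the cutoffs 0 were higher and 10 were lower by edgeR (4.73% and 3.13% of all genes), with a median log2 fold change of -0.67 against 0.0062 over all genes. The same counts, 0 and 10, were obtained by DESeq2, and at an unadjusted p under 0.05 and any size 3 were higher and 13 lower (25.0% and 24.8% of all genes). Besides *Ina* and *Prph* the genes that fell were keratins, the filaments of epithelia, 8 of the 10 tested, among them *Krt18* (log2 fold change -1.81), *Krt8* (-1.26), *Krt7* (-3.21) and *Krt42* (-1.34).

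*Vim*, the vimentin of mesenchymal cells and a partner of neurofilaments in immature neurons, had 3619 and 2991 counts in WT, against 7128 and 5058 in G3 *Terc*-/- libraries. Its log2 fold change of 1.00 (SE 0.06, adjusted p = 1.03e-16 by edgeR) was just short of the cutoff, and was past it without WT replicate 1 (1.15) and without G3 replicate 2 (1.10). Synemin (*Synm*, 0.97), named after its values were seen, passed without WT replicate 2 (1.01) and without G3 replicate 1 (1.08), so that with each library left out in turn 1 gene was higher in place of 0. Nestin (*Nes*), the filament of neural progenitors, had 863 and 883 counts in WT, against 756 and 699 in G3 *Terc*-/- libraries, a log2 fold change of -0.14 (adjusted p = 0.148 by edgeR). The nuclear lamins had log2 fold changes of -0.07 for *Lmnb1*, -0.16 for *Lmnb2* and -0.44 for *Lmna*.

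**Figure D3:**
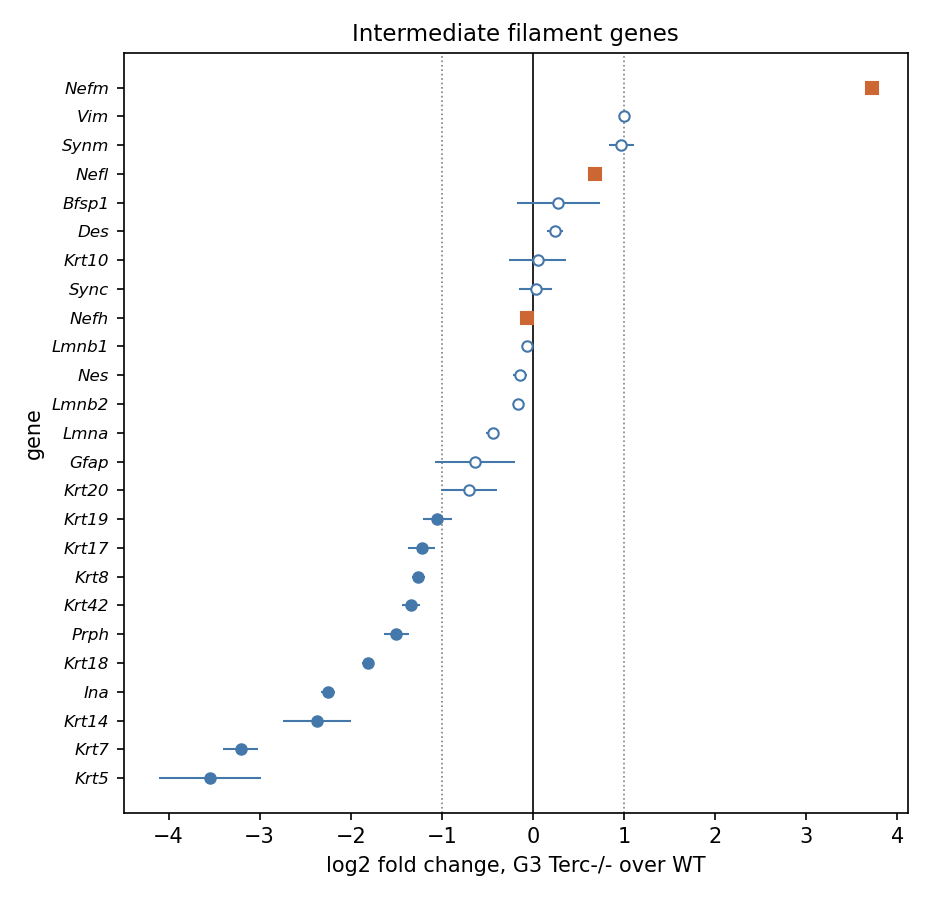
Log2 fold change (G3 *Terc*-/- over WT) of the 22 intermediate filament genes tested, as circles with standard errors that are filled where the cutoffs were passed, and of *Nefl*, *Nefm* and *Nefh* as squares. *Nefm* is the highest at 3.72, *Nefl* (0.68) lies below *Vim* and *Synm*, and the 10 genes that fell lie between -3.54 and -1.05.

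Genes whose products act on neurofilaments, such as the kinases and phosphatases of the tails, axonal motors, cross-linkers and factors of filament turnover, did not pass the cutoffs in either direction. Of 49 tested, 0 were higher and 0 lower by edgeR (4.73% and 3.13% of all genes), and likewise 0 and 0 by DESeq2, while 11 were higher and 13 lower at an unadjusted p under 0.05 and any size, shares of 22.4% and 26.5% that are close to the 25.0% and 24.8% over all genes. Their median log2 fold change was -0.0036. The lowest and the highest value, named after they were seen, were -0.76 for *Cdk5r1*, the activator of the kinase Cdk5, and 0.65 for *Uchl1*, a ubiquitin hydrolase abundant in neurons.

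Neuronal genes moved in both directions. Of 38 tested neuronal markers, *Nefl*, *Nefm* and *Nefh* not among them, 5 rose and 6 fell at the cutoffs (4.73% and 3.13% of all genes), with a median log2 fold change of -0.08. At an unadjusted p under 0.05 and any size 13 were higher and 15 lower (25.0% and 24.8% of all genes). The adhesion molecules *Nrcam* (2.01) and *Ncam1* (1.06) and the cytoskeletal regulator *Dpysl3* (1.54) were among the 5 that were higher. *Ina* and *Prph* were among the 6 that were lower, as was *Snap25*, a protein of synaptic vesicle release. *Snap25* had 27 and 33 counts in WT, against 9 and 15 in G3 *Terc*-/- libraries (log2 fold change -1.18). It would not have passed the filter on low counts with its G3 *Terc*-/- libraries alone, so its p-value is not given. *Snap25* did not pass without G3 replicate 1 (-0.73), nor with DESeq2, where its log2 fold change was still -1.18.

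Of the markers taken as defining neurons, *Tubb3*, *Stmn2*, *Map2* and *Rbfox3* did not pass the cutoffs. Each of these was short of a fold change of 2, with adjusted p-values by edgeR of 3.25e-10, 9.01e-12, 0.00545 and 0.0284 in this order. Other genes of the list that passed are counted above and not all named. *Tubb3*, a neuronal tubulin, had 1059 and 1114 counts in WT, against 1710 and 1340 in G3 *Terc*-/- libraries (log2 fold change 0.61), and *Stmn2*, the most abundant gene of the list, had 0.54. *Map2*, a dendritic microtubule protein, had -0.44 and *Rbfox3*, the NeuN antigen, -0.72, with 64 and 51 counts against 38 and 26. *Dcx*, of migrating young neurons, had 0 and 2 counts in WT, against 1 and 0 in G3 *Terc*-/- libraries, and *Syt1*, of synaptic vesicles, 6 and 6 against 7 and 7. No listed neuronal marker was at 0 in all 4 libraries. The summed level of the list was 822 and 821 CPM in WT and 1010 and 996 CPM in G3 *Terc*-/- libraries, and its part in the level of *Nefm* was not tested. Abundant genes weigh most in this sum. Means in WT and G3 *Terc*-/- ESCs were 186 and 270 CPM for *Stmn2*, 45.4 and 132 CPM for *Dpysl3*, and 68.1 and 14.3 CPM for *Ina*. The median log2 fold change of the list was -0.08, with 5 genes higher and 6 lower at the cutoffs.

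Of 24 tested genes of neural progenitors and neurogenesis, 5 were higher and 2 were lower (4.73% and 3.13% of all genes), with a median of 0.27. At an unadjusted p under 0.05 and any size 11 were higher and 2 lower (25.0% and 24.8% of all genes). *Neurog1*, a proneural factor, had 31 and 30 counts in WT, against 150 and 117 in G3 *Terc*-/- libraries, which gave a log2 fold change of 2.25 (SE 0.22, adjusted p = 1.61e-11 by edgeR, higher in both libraries). *Pou3f2* (2.26), also a neurogenic factor, rose from 5 and 2 counts in WT to 22 and 10, and *Ebf2* was higher as well. *Hes6* (-1.58) and *Insm1* (-1.04) fell. Without G3 replicate 1 the counts were 3 higher and 1 lower, and *Pou3f2* (1.74) and *Insm1* (-0.99) were among those that did not pass, and with DESeq2 they were 3 and 2. *Insm1* did not pass without WT replicate 2 either (-0.91). The summed level was 421 and 432 CPM in WT and 505 and 521 CPM in G3 *Terc*-/- libraries, and *Dbx1* was at 0 in all libraries.

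Neural crest markers were taken because neurofilaments also mark crest-derived sensory neurons. Of 11 tested, 2 were higher and 0 lower by edgeR (4.73% and 3.13% of all genes) and also by DESeq2, at an unadjusted p under 0.05 and any size 5 and 0 (25.0% and 24.8% of all genes), and the median was 0.53. *Foxd3*, a factor of crest progenitors that ESCs also need, had 544 and 647 counts in WT, against 1683 and 1487 in G3 *Terc*-/- libraries (log2 fold change 1.54, adjusted p = 9.25e-21 by edgeR, higher in both libraries), and the neurotrophin receptor *Ngfr* had a log2 fold change of 1.16. *Foxd3* was the most abundant gene of the list, whose summed level was 61.0 and 65.1 CPM in WT and 136 and 139 CPM in G3 *Terc*-/- libraries. Without *Foxd3* and *Ngfr*, the genes that passed, the sum was 21.1 and 20.8 CPM in WT and 25.2 and 25.3 CPM in G3 *Terc*-/- libraries. *Sox10*, which defines migrating crest and its glia, had only 10 and 15 counts in WT, against 14 and 19 in G3 *Terc*-/- libraries.

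REST is the repressor that keeps neuronal genes silent outside neurons. *Rest* itself had 4520 and 4944 counts in WT, against 4225 and 3424 in G3 *Terc*-/- libraries (log2 fold change -0.18, adjusted p = 0.0036 by edgeR). Of *Rest* and its corepressors, 18 genes, 0 were higher and 0 lower at the cutoffs by edgeR (4.73% and 3.13% of all genes) and by DESeq2, and 3 were higher and 6 lower at an unadjusted p under 0.05 (25.0% and 24.8% of all genes). Their median was -0.10. Of 37 tested REST target genes, 2 were higher, the channel subunit *Scn3b* (1.59) and the calcium pump *Atp2b2* (1.47), and 3 were lower, *Unc13a* (-1.18), *Snap25* and *Elavl3* (-1.05), beside 4.73% and 3.13% of all genes, with a median of -0.15. At an unadjusted p under 0.05 and any size 10 were higher and 12 lower (25.0% and 24.8% of all genes). This list shares 14 genes with the neuronal markers.

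ESC markers and feeder cells were examined beside these genes. Of 18 ESC markers, 2 were higher, *Nanog* (1.13) and *Tbx3* (1.81), and 0 were lower by edgeR (4.73% and 3.13% of all genes) or by DESeq2, 13 and 4 at an unadjusted p under 0.05 (25.0% and 24.8% of all genes), with a median of 0.37 and *Zfp42* at 0.27. The 4 that were lower, named after their values were seen, were *Dppa5a* (-0.79), *Lin28a* (-0.42), *Utf1* (-0.32) and *Dppa4* (-0.13). Of 35 tested fibroblast markers, 1 was higher, the matrix proteoglycan *Dcn* (1.04), and 0 were lower by edgeR (4.73% and 3.13% of all genes), with a median of 0.21. DESeq2 called 0 and 0 of them, and 15 were higher and 2 lower at an unadjusted p under 0.05 (25.0% and 24.8% of all genes). Without WT replicate 1 the number higher was 3 and without G3 replicate 2 it was 2. *Dcn* did not pass without WT replicate 2 (0.52) or without G3 replicate 2 (0.93), and its log2 fold change came to 1.84 without WT replicate 1.

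Fibroblast markers differed between replicates of a genotype. Their summed level, with *Fn1* as the most abundant gene, was 2972 and 2492 CPM in WT and 3687 and 3149 CPM in G3 *Terc*-/- libraries. *Fn1* alone had 1138 and 1008 CPM in WT and 1696 and 1506 CPM in G3 *Terc*-/- libraries. Much of the difference in the sum thus lay in this gene. *Col1a1*, a collagen that defines fibroblasts, had 60.6 and 35.5 CPM in WT and 63.8 and 43.0 CPM in G3 *Terc*-/- libraries, and *Col3a1* 12.2 and 8.34 against 17.0 and 12.2. *Col1a2* had 1092 and 691 counts against 1261 and 657, and all 3 collagens were higher in replicate 1 of each genotype. Between the same G3 *Terc*-/- libraries *Nefm* had 19.8 and 22.4 CPM, *A230070E04Rik* 8.34 and 9.21 CPM and *Nefl* 81.3 and 84.0 CPM, none of them higher in replicate 1. In WT they had 1.97 and 1.22, 0.595 and 0.271, and 49.7 and 53.2 CPM, so that *Nefm* and *A230070E04Rik* were higher in replicate 1 there, as the collagens were, and *Nefl* was not. *Vim* had 321 and 277 CPM in G3 *Terc*-/- libraries and 166 and 135 CPM in WT, higher in replicate 1 of each genotype.

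The genes most like each of *Nefm*, *Nefl* and *A230070E04Rik* over the 4 libraries were sought among 12173 genes, by the Euclidean distance of centred log2 CPM. For *Nefm* these were the transcribed pseudogene *Gm5039* (distance 0.328), *Pramel16* (0.342) and the non-coding *Vax2os* (0.530). *Gm5039* had 13 and 10 counts in WT, against 138 and 127 in G3 *Terc*-/- libraries. For *A230070E04Rik* they were *Pramel16* (0.756), *Gm20767* (0.805) and *Gm5039* (0.809). *Pramel16*, with 13 and 9 counts against 154 and 112, belongs to a family of related copies, so its counts are uncertain. For *Nefl* they were *Zdhhc15* (0.0260), *Nodal* (0.0314) and *Trim24* (0.0349). *Nodal*, a signalling ligand of the early embryo, had 1376 and 1504 counts in WT, against 2233 and 1942 in G3 *Terc*-/- libraries. None of these lies on chromosome 14.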

How the data were processed

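Poly(A) RNA-seq libraries of WT and G3 *Terc*-/- ESCs, 2 per genotype, were grouped by their labels. The authors deposited raw counts per gene without normalization, listed by NCBI gene identifiers. The submitters' processing notes name Trim Galore, STAR, featureCounts and mm10, and versions and the strand setting are not given in the sources used here. A table of counts on TE copies was not used. Of 24116 identifiers, 24061 were matched to symbols and positions of RefSeq's GRCm38.p6, and exon lengths and coding sequences came from GENCODE M21. Promoter sequences of the 4 genes were not used here.

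From the counts, CPM and fold changes were computed with edgeR 4.0.16 in R 4.3.3 (TMM, filterByExpr and the quasi-likelihood test, with genotype in the model). A gene was called where it passed both cutoffs of the study (fold change of 2, *P* of 0.05), and p-values were adjusted over all genes tested by Benjamini-Hochberg. Replicates differed by more than sampling noise (chi-square per gene 2.42 in WT and 3.63 in G3 *Terc*-/-). Log2 CPM for likeness had a prior count of 2. The alternatives were DESeq2 1.42.0, edgeR with DESeq2's size factors, a block for replicate number, no filter, adjusted p-values, each library left out, a window of 2 Mb, the longest transcript as length and a prior count of 5. The fits were tested on simulated counts. Figures were drawn with matplotlib 3.10.9.

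The 4 genes and the 9 gene lists, written from general knowledge, were chosen with earlier results of these data known, and the 4 genes were left out of list counts. The text names *Terc*, the 4 genes, neighbours within 1 Mb that passed the cutoffs and the nearest tested on either side, of each list at most 5 genes that passed, with the smallest p, intermediate filament genes that averaged 500 counts or more, the defining markers *Pou5f1*, *Sox2*, *Nanog*, *Zfp42*, *Tubb3*, *Map2*, *Rbfox3*, *Stmn2*, *Snap25*, *Sox10*, *Prph*, *Col1a1*, *Col1a2*, *Col3a1* and *Rest*, and for *Nefm*, *Nefl* and *A230070E04Rik* the 3 genes most like each, among those averaging 50 counts or more. Most abundant genes of lists and markers at or near 0 are named as well. Some genes that this rule takes, and a coding stretch shared by the filament genes, are not reported here.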

Additional observations from a re-analysis of the deposited data

How the results depend on the processing

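The log2 fold changes kept their direction under every alternative run, and with each library left out they lay between 3.41 and 4.10 for *Nefm*, 0.63 and 0.73 for *Nefl*, 3.86 and 4.98 for *A230070E04Rik* and -0.11 and -0.03 for *Nefh*. A paired fit (replicate block) gave 3.72, 0.68, 4.32 and -0.07 in the same order, and 700 genes were higher and 461 lower in place of 704 and 466. The numbers carried little shared deviation (correlation 0.0617 over genes), and the block changed no other count by over 1.5 times.

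With DESeq2, 0 neighbours, 3 progenitor genes and 0 fibroblast markers were higher in place of 1, 5 and 1, and the cause was not tested. Without the filter 2 fibroblast markers were higher. A window of 2 Mb, which takes in more genes, gave 5 higher and 1 lower. With each library left out, 0 to 2 neighbours, 1 intermediate filament gene (0 with all libraries), 3 to 6 progenitor genes and 1 to 3 fibroblast markers were higher, and 1 to 2 progenitor genes were lower, the lone library of a genotype being assumed to vary like the others. With a prior count of 5, *Nefl* kept 3 of the 3 genes most like it, and *Nefm* and *A230070E04Rik* kept 2 each. The other counts stayed within 1.5 times. The few WT counts of *Nefm* and *A230070E04Rik* limit the precision of their folds.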

Other observations

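Within 2 Mb of *Nefl* and *Nefm*, 26 of 41 genes were tested, and 5 were higher and 1 was lower at the cutoffs (4.73% and 3.13% of all genes), with a median log2 fold change of 0.11. The genes beyond 1 Mb are named here after their values were seen. *Adra1a*, an α1-adrenergic receptor, had 1 and 2 counts in WT, against 24 and 14 in G3 *Terc*-/- libraries (log2 fold change 3.67, SE 0.68, higher in both libraries). Like *A230070E04Rik*, it would not have passed the filter on low counts with its WT libraries alone, so its p-value is not given. *Ephx2*, the soluble epoxide hydrolase, had 370 and 371 counts in WT, against 1059 and 896 in G3 *Terc*-/- libraries (log2 fold change 1.52, adjusted p = 1.07e-19 by edgeR's quasi-likelihood test, higher in both libraries). *Egr3*, an immediate early transcription factor, had a log2 fold change of 1.48 and *1700001G11Rik* of 1.19. *Stmn4*, a neuronal regulator of microtubules, was the gene that was lower, with 28 and 22 counts in WT, against 12 and 7 in G3 *Terc*-/- libraries (log2 fold change -1.27). It did not pass the cutoffs without WT replicate 1 (-1.07) or without G3 replicate 2 (-1.06). It did not pass with DESeq2 either, at a log2 fold change of -1.3. *Ebf2*, within 1 Mb, was the other gene that was higher, and *Bnip3l* and *Ppp2r2a* did not pass.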
